A study of Mus musculus and Homo sapiens with 41 samples.

Results

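Myeloid fate in the bone marrow is set by a small set of transcription factors, and 10 of them were followed here: Spi1, Irf8, Irf4, Gfi1, Klf4, Runx1, Cbfb, Myb, Myc and Zeb2. They were chosen by gene symbol, and all 10 were among the 53756 genes of the expression table of granulocyte-monocyte progenitors (GMPs), whereas 8 were among the 13238 genes of the table of the 416b cell line. Gfi1 and Irf4 were not analysed here in 416b cells. The question was how the mRNA of these factors differs when PLZF, the zinc finger repressor encoded by Zbtb16, is mutated or overexpressed. GMPs came from the marrow of C57BL/6 Cd45-1 hosts that had been lethally irradiated and rebuilt with C57BL/6 Cd45-2 bone marrow, either WT or Zbtb16lu/lu, a loss-of-function (luxoid) mutation carried in the germline. They were sorted as Lineage negative, Cd45+, c-Kit+, Sca-1-, Cd34+, FcγR+ cells, and the age of the donors was not given in the sources used here. The table holds 2 libraries of each genotype. 1 WT and 1 Zbtb16lu/lu library carry the same date in their names and are called WT-1 and lu-1, and the other libraries are called WT-2 and lu-2. What was done on that date is not stated. The 416b line, a Cd34+ murine myeloid line, received a lentivirus for PLZF-Flag or the Empty vector, both with GFP, and GFP-positive cells were sequenced in 1 library each.

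In a progenitor with both granulocytic and monocytic potential, PU.1 (encoded by Spi1) opens myeloid genes, and its partner IRF8 favours the monocytic and dendritic fates. GFI1 represses monocytic genes and is needed for neutrophils. RUNX1 with its cofactor CBFβ, and MYB, maintain the progenitor programme, and MYC drives ribosome production and growth. KLF4 and ZEB2 act later, in monocytes and in dendritic cells, and IRF4 is the paralogue of IRF8 that is used mostly in lymphoid cells and in some dendritic cells.

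Promoter sequences from RefSeq (GRCm38.p6, 250 bases before the transcript start to 50 after it) were found for 8 of the 10 genes, in 14 windows, and those of Spi1 and Myc were not among them. The first Gfi1 promoter and the Irf4 promoter are shown, since Gfi1 is the counterpart in the ratios to Irf8 and Irf4 is the paralogue of Irf8 that was nearly silent in GMPs. Capitals mark GGAA or its reverse complement (the ETS core, the letters read by PU.1) and, in Gfi1, a match to TTGCNNAA, the letters of a C/EBP site. The Gfi1 window lies on the minus strand at chr5:107725756-107726055 and the Irf4 window on the plus strand at chr13:30748983-30749282.
Gfi1: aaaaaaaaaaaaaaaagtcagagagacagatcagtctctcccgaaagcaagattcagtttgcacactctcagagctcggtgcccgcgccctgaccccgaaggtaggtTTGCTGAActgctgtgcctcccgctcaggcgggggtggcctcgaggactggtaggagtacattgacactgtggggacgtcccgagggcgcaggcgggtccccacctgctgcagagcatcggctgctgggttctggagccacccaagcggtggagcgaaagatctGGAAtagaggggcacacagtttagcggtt
Irf4: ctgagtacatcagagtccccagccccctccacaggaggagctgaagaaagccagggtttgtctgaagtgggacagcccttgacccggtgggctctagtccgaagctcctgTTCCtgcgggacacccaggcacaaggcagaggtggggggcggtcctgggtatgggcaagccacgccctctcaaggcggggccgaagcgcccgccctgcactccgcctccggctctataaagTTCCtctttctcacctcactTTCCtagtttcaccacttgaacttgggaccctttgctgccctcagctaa

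GGAA was in all 14 windows of the members, and in 96.0% of 32851 promoters of the same length (both strands). TTGCNNAA was in 1 window each of Gfi1 and Zeb2, and in 10.8% of all promoters. The first Irf8 window held 38 CG dinucleotides and the second 8, against 16 in the Gfi1 window shown, 11 in the Irf4 window and a median of 7 over all promoters. The windows of Klf4 and Myb held 40 each. The first Irf8 window also held 2 matches to TTCNNNGAA, the letters of an interferon-gamma activated sequence, 1 of which overlaps a GGAA. Zeb2 was the only other member with a match, and 8.3% of all promoters had one. The longer GAAANNGAAA, the letters of an interferon-stimulated response element, was in 0 of the 14 windows and in 3.4% of all promoters (both strands). These matches describe letters, not sites in use.

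The Zbtb16lu/lu genotype was visible in Zbtb16 itself (chromosome 9, 48654297 to 48836222 of mm10). It was measured at 705 and 828 normalized counts in WT libraries against 369 and 269 in the mutant libraries, a log2 difference of -1.28 (limma adjusted p = 0.299). The libraries held 37562999 to 40170636 reads on genes. The sorted cells expressed GMP markers, with Mpo, the granule peroxidase, at 477326 to 552003 normalized counts and Kit at 6511 to 7338. Of 6 T and NK cell markers 1 passed the filter on low values, Nkg7 at 11056 to 11712 normalized counts, and the T cell receptor chain Cd3e had at most 3. Of 9 dendritic cell markers 6 passed, led by Bst2 at 939 to 1314, and Siglech, a marker of plasmacytoid dendritic cells, had at most 3. Monocyte and neutrophil markers were measurable, and their values are given beside the target genes.

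Of the 9 tested factors, Irf8 differed most between the genotypes, and the difference exceeded the spread within either genotype. Irf8 (chromosome 8, 120736358 to 120756694) had 9786 and 9305 normalized counts in the WT libraries and 13887 and 14277 in the Zbtb16lu/lu libraries. The groups did not overlap, and the means were 9545 ± 340 in WT and 14082 ± 276 in Zbtb16lu/lu (SD, n = 2 each), a 1.48-fold difference. On the log2 scale after adding 1 this was 0.56 (standard error 0.11, 95% interval 0.31 to 0.81), and Irf8 ranked 38 of 20531 tested genes by p-value. The limma p was 0.000662 before and 0.299 after Benjamini-Hochberg adjustment over all of them (adjusted p = 0.299), so Irf8 did not pass the 0.08 threshold. 0 of 20531 genes passed it (percent called 0), and 1130 were higher (5.5%) and 898 lower (4.37%) in Zbtb16lu/lu at an unadjusted p under 0.05. With edgeR's quasi-likelihood test on the recovered reads the adjusted p of Irf8 was 0.329, and 0 genes passed. With the DESeq2 Wald test on the same reads it was 0.00346, with a log2 difference of 0.56, and 201 of 14053 genes with an adjusted p passed (1.43%). The size of the Irf8 difference did not depend on the tool or on 1 library. It was 0.505 between lu-1 and WT-1, 0.62 between lu-2 and WT-2, and 0.52 to 0.60 with each library left out in turn. Because GMPs were measured in bulk, more Irf8-expressing cells and more Irf8 mRNA per cell cannot be told apart.

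**Figure D1:**
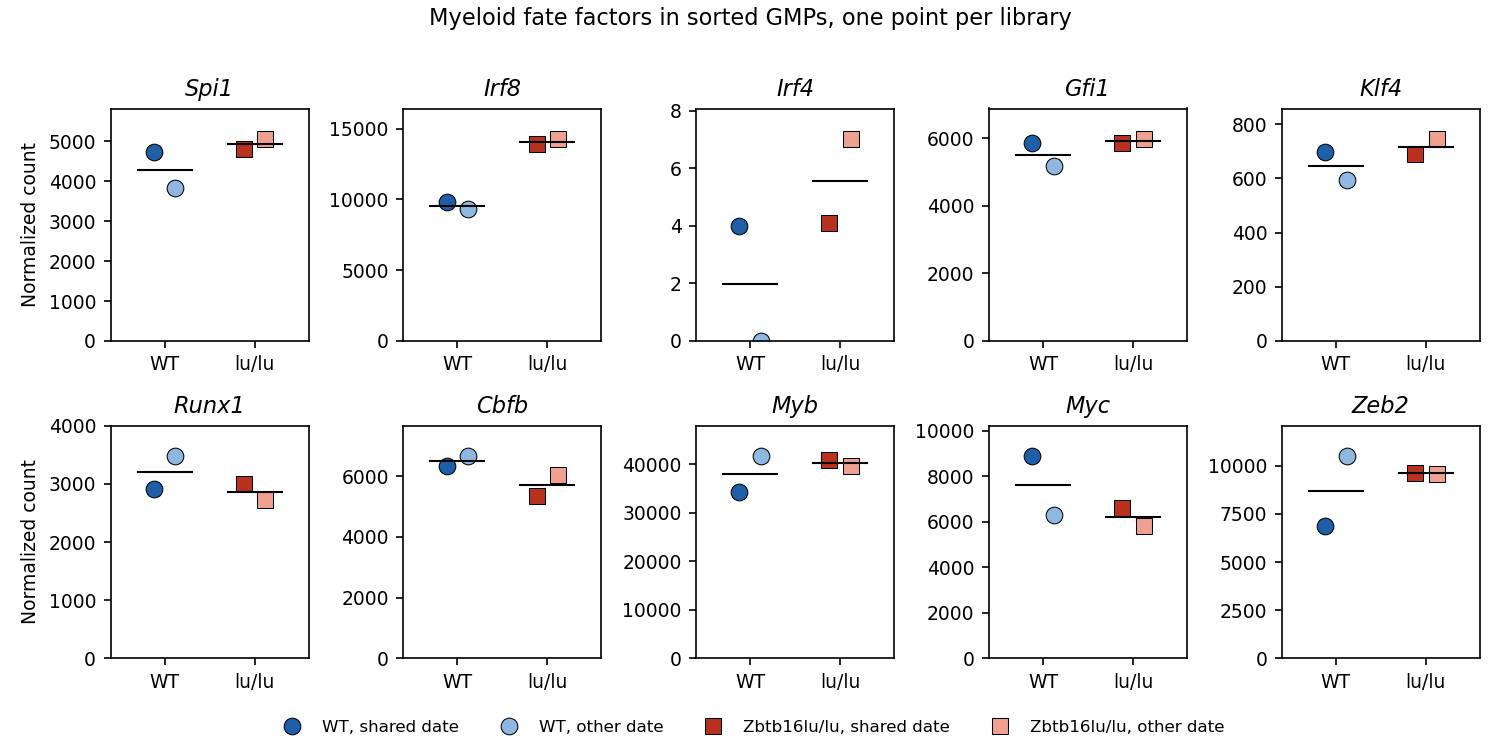
Normalized counts (y axis, from 0, a separate scale for each gene) of the 10 factors in WT and Zbtb16lu/lu (lu/lu) GMPs, 1 point per library and a bar at the mean of 2 libraries. Both Zbtb16lu/lu points of Irf8 (13887 and 14277) lie well above both WT points (9786 and 9305), while the points of Klf4, Runx1, Myb, Myc and Zeb2 overlap.

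None of the other 8 tested factors passed the threshold or an unadjusted p of 0.05. Spi1, the partner of Irf8 (chromosome 2, 91082390 to 91115756), had 4723 and 3819 normalized counts in WT against 4799 and 5063 in Zbtb16lu/lu. Both mutant libraries lay above both WT libraries, but the nearest pair differed little, and the log2 difference was 0.21 (95% interval -0.09 to 0.52, limma adjusted p = 0.598). It was 0.02 between lu-1 and WT-1, 0.41 between lu-2 and WT-2, 0.37 without WT-1 and 0.06 without WT-2. It turned to -0.03 when trends with gene length and GC content were removed. The 95% interval of Spi1 ends below the 0.56 estimated for Irf8, but it overlaps the interval of Irf8 (0.31 to 0.81).

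Gfi1, the granulocytic counterpart (chromosome 5, 107716657 to 107726036), had 5861 and 5180 normalized counts in WT against 5878 and 5988 in Zbtb16lu/lu. The lowest mutant library exceeded the highest WT library by less than the spread among WT libraries. The log2 difference was 0.11 (95% interval -0.16 to 0.37, limma adjusted p = 0.763). It was 0.004 between lu-1 and WT-1, 0.21 between lu-2 and WT-2, and 0.02 to 0.20 with each library left out. With length and GC trends removed it was -0.09. On the opposite strand other genes share 3.2% of the exon bases of Gfi1, 6.3% of those of Myb, 3.3% of those of Zeb2 and 0.9% of those of Runx1, and the strand setting of the counting was not given in the sources used here.

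The ratios of Irf8 to these factors do not depend on how a library was scaled. In WT libraries the log2 ratio of Irf8 to Gfi1 was 0.74 and 0.845, and in Zbtb16lu/lu libraries it was 1.24 and 1.25, a difference of 0.45. Likewise the log2 ratio of Irf8 to Spi1 was 1.05 and 1.28 in WT libraries, against 1.53 and 1.496 in Zbtb16lu/lu libraries, a difference of 0.35. Neither ratio overlapped between the genotypes. In an exact two-sided permutation test each gave p = 0.333, the smallest value that 2 libraries against 2 allow.

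Among the factors of the progenitor state, values leaned in both directions and none passed the test. Runx1 (chromosome 16, 92601466 to 92826149) had 2919 and 3481 normalized counts in WT against 3005 and 2730 in Zbtb16lu/lu, overlapping groups with a log2 difference of -0.15 (limma adjusted p = 0.699). Its direction changed with the libraries, being 0.04 between lu-1 and WT-1 and -0.35 between lu-2 and WT-2. Cbfb, the cofactor of Runx1 (chromosome 8, 105170674 to 105217989), had 6351 and 6670 normalized counts in WT against 5356 and 6053 in Zbtb16lu/lu. Both mutant libraries were below both WT libraries, with a log2 difference of -0.19 (95% interval -0.46 to 0.07, limma adjusted p = 0.589). Myb (chromosome 10, 21124935 to 21160984) had 34262 and 41713 normalized counts in WT against 40887 and 39622 in Zbtb16lu/lu. The mutant values lay inside the WT range, with a log2 difference of 0.09 (limma adjusted p = 0.833). Without WT-1 it was -0.05.

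Myc (chromosome 15, 61985391 to 61990374) had 8895 and 6315 normalized counts in WT against 6596 and 5809 in Zbtb16lu/lu. WT-1 stood above the other 3 libraries, which overlapped. The log2 difference was -0.28 (95% interval -0.65 to 0.10, limma adjusted p = 0.589), and -0.03 without WT-1. Without WT-2 it was -0.52, with a limma adjusted p of 9.14e-05 that takes its spread from the Zbtb16lu/lu pair alone.

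The differences of the later monocytic and dendritic factors Zeb2 and Klf4 also moved with the WT library that was left out. Zeb2 (chromosome 2, 44983632 to 45117395) had 6889 and 10510 normalized counts in WT, the widest WT spread of the tested members on the log2 scale (0.61), and 9642 and 9596 in Zbtb16lu/lu, which lay between them. Its log2 difference was 0.18 (95% interval -0.24 to 0.59, limma adjusted p = 0.75). It was 0.48 (limma adjusted p = 0.000429) without WT-2 and -0.13 without WT-1. Klf4 (chromosome 4, 55527143 to 55532466) had 697 and 593 normalized counts in WT against 689 and 746 in Zbtb16lu/lu. The groups overlapped, with a log2 difference of 0.16 (limma adjusted p = 0.748). The Klf4 difference was 0.27 without WT-1 and 0.04 without WT-2. Irf4 (chromosome 13, 30749226 to 30766976) was covered by 4, 0, 4 and 7 reads in the 4 libraries and did not pass the filter of 10 normalized counts in 2 libraries. Its count of 0 in WT allows up to 2.89 normalized counts, so a difference in Irf4 was not detectable at this depth.

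Over the 9 tested members, 6 were higher and 3 lower in Zbtb16lu/lu, with a median log2 difference of 0.11, against -0.01 (-0.0063) over all tested genes. Both Zbtb16lu/lu libraries lay above both WT libraries for 3 of the 9 (Irf8, Spi1 and Gfi1), where 21.7% of all tested genes did so. They lay below for 1 of the 9 (Cbfb), where 22.1% did. 1 member, Irf8, had an unadjusted p under 0.05. The sign differed between the lu-1 to WT-1 and the lu-2 to WT-2 comparison for Klf4, Runx1, Myb and Zeb2. The median absolute log2 difference between libraries of 1 genotype was 0.28 in WT and 0.15 in Zbtb16lu/lu over all tested genes, so much of the spread seen for the members came from the WT side.

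**Figure D2:**
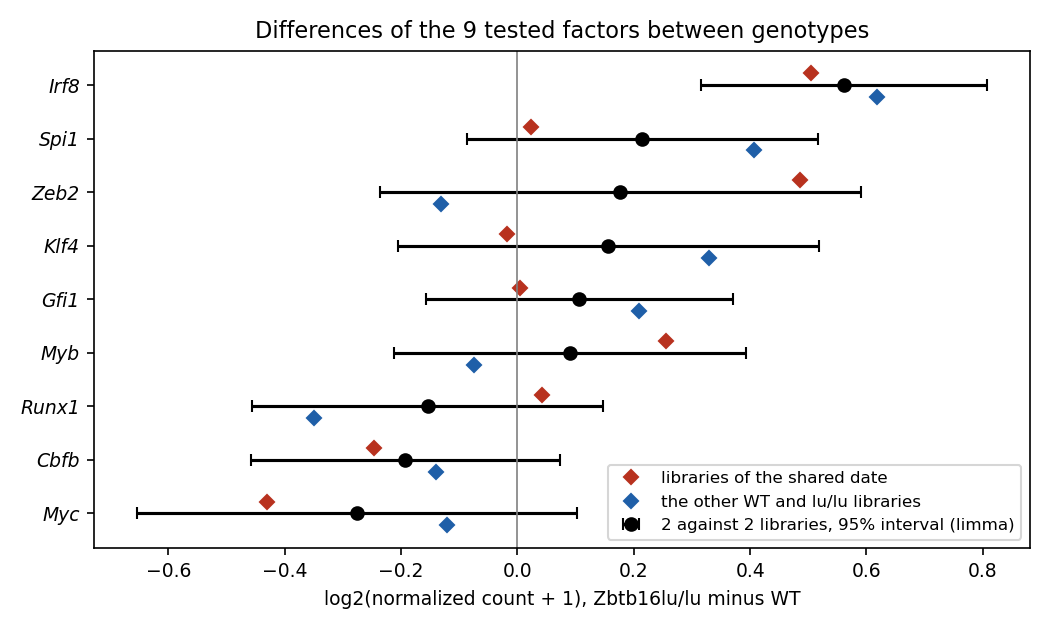
Log2 difference between Zbtb16lu/lu and WT GMPs (x axis) for the 9 tested factors. Black points and bars give the limma estimate and its 95% interval from 2 against 2 libraries, and diamonds give lu-1 minus WT-1 (shared date, red) and lu-2 minus WT-2 (blue). The interval of Irf8 (0.31 to 0.81) excludes 0 and its diamonds (0.505 and 0.62) lie inside it, whereas for Zeb2, Klf4, Myb and Runx1 the diamonds lie on opposite sides of 0.

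Per kilobase of exon, the factors spanned a wide range of levels in GMPs. Myb stood first in each library, with 4253 ± 590 normalized counts per kb in WT (SD, n = 2), followed by Myc with 2799 ± 671. Cbfb (1871 ± 64.8), Gfi1 (1732 ± 151), Spi1 (1585 ± 237) and Irf8 (1353 ± 48.2) formed a middle group in WT. Cbfb and Gfi1 were each above Spi1 in both WT libraries, and the means of Gfi1 and Spi1 differed by less than the SD of Spi1. Irf8 was the lowest of the 4 in both WT libraries and the highest of the 4 in both Zbtb16lu/lu libraries, at 1996 ± 39.1 normalized counts per kb. Zeb2 (436 ± 128), Runx1 (266 ± 33.1) and Klf4 (212 ± 24.1) followed in WT, and Irf4 was last at 0.406 ± 0.574. Runx1 and Klf4 changed places between Zbtb16lu/lu libraries. With the longest transcript as the length in place of all exon bases, Irf8 ranked 3 in place of 6 in WT, Cbfb 4 in place of 3 and Gfi1 6 in place of 4.

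**Figure D3:**
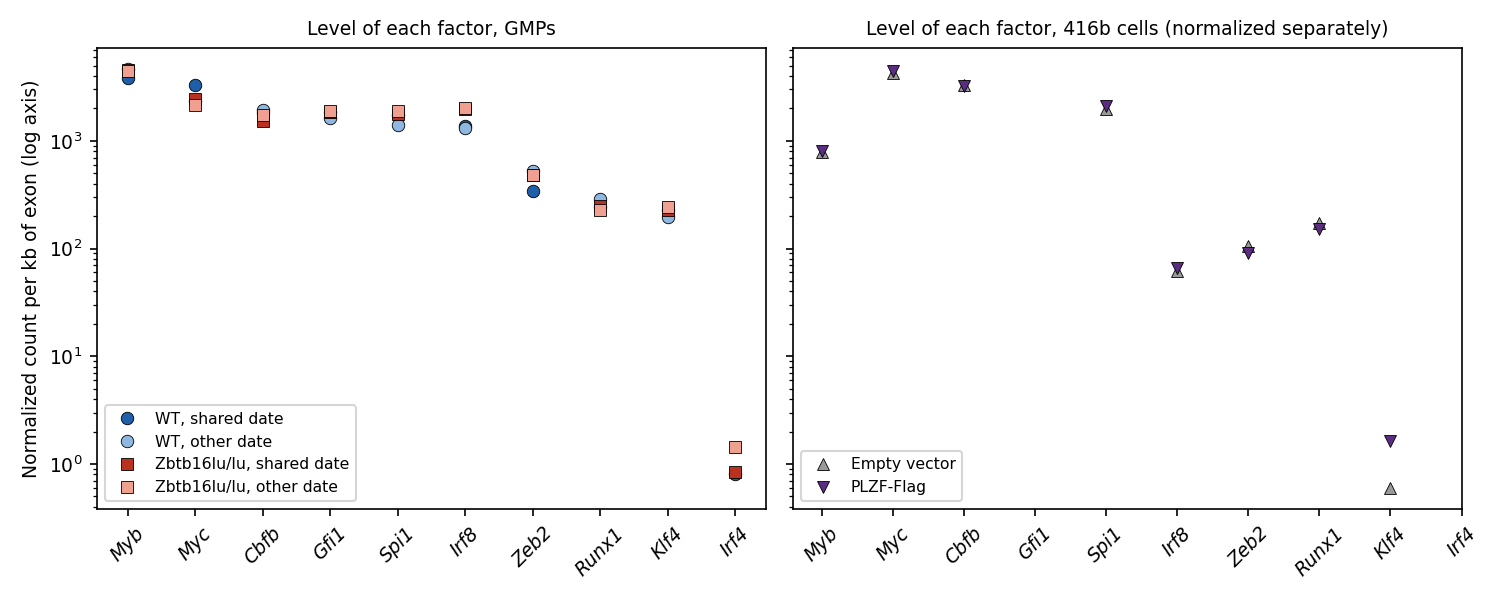
Normalized counts per kilobase of exon (log y axis) of the factors in each GMP library (left) and each 416b library (right), the tables having been normalized separately. Irf4 is at the bottom in GMPs and its WT library at 0 is not drawn, and in 416b cells Irf8 and Klf4 are the lowest of the 8 listed factors.

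The relatives of the factors were examined through lists of family members, partners and target genes. Of the 7 other IRF genes, 6 were higher in Zbtb16lu/lu and 1 had an unadjusted p under 0.05, where 5.5% of all tested genes were higher at such a p. This was Irf7, an inducer of interferon genes, with 127 and 97.4 normalized counts in WT against 184 and 192 in Zbtb16lu/lu (log2 difference 0.75, limma adjusted p = 0.443). Of 10 tested ETS factors related to PU.1, 3 were higher and 7 lower, and 0 had such a p. Elf4 had the lowest p of them, with a log2 difference of -0.29 (limma adjusted p = 0.555). Of 11 KLF genes, 6 were higher and 1 had an unadjusted p under 0.05, namely Klf11 at 0.68 (limma adjusted p = 0.343, DESeq2 adjusted p = 0.0534). Partners and relatives of RUNX1 and CBFβ (5 tested), MYB (2 tested) and ZEB2 (2 tested) had no gene with such a p.

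The partners of GFI1 in repression and its paralogue Gfi1b, taken as 1 list, were all on 1 side. Of 5 tested, 5 were lower in Zbtb16lu/lu, where 10441 of all 20531 tested genes were lower. Their median log2 difference was -0.18, and 0 had an unadjusted p under 0.05. Hdac2, a histone deacetylase, had 5726 and 6647 normalized counts in WT against 4882 and 5293 in Zbtb16lu/lu (log2 difference -0.28, limma adjusted p = 0.506). Gfi1b, the erythroid and megakaryocytic paralogue of Gfi1, had a log2 difference of -0.80 (limma adjusted p = 0.537). Of 9 genes that GFI1 represses, 4 were higher and 5 lower, with a median of -0.16. Hoxa9, a progenitor homeobox gene, had the lowest p among them, with a log2 difference of 0.33 (limma adjusted p = 0.546).

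Target genes of IRF8 and PU.1 leaned to the Zbtb16lu/lu side together with Irf8. Of 14 tested, 13 were higher in Zbtb16lu/lu, 6 of them at an unadjusted p under 0.05 (against 5.5% of all tested genes) and 0 past the limma threshold, with a median log2 difference of 0.38. Both Zbtb16lu/lu libraries lay above both WT libraries for 8 of the 14, against 21.7% of all tested genes. Csf2ra, a chain of the GM-CSF receptor, had 1273 and 1059 normalized counts in WT against 1980 and 1878 in Zbtb16lu/lu (log2 difference 0.73, limma adjusted p = 0.299, DESeq2 adjusted p = 0.00343). Cst3, a protease inhibitor abundant in dendritic cells, had a log2 difference of 0.43, with 6942 and 6317 normalized counts in WT against 8082 and 9844 in Zbtb16lu/lu. Csf1r, the receptor of macrophage colony-stimulating factor, had a log2 difference of 0.41, with 4780 and 5819 normalized counts in WT against 7351 and 6658 in Zbtb16lu/lu. Csf1r and Ly86 are also on the list of monocyte markers. Among the 12 other tested genes, 11 were higher and 4 had an unadjusted p under 0.05, with a median of 0.35. With each library left out, 10 to 12 of the 14 were higher, and between lu-1 and WT-1 10 were. The median was 0.18 without lu-2, 0.20 between lu-1 and WT-1 and 0.38 between lu-2 and WT-2.

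Monocyte and neutrophil markers leaned the same way as this list and Irf8. All 8 monocyte markers were higher in Zbtb16lu/lu, 6 at an unadjusted p under 0.05 (against 5.5% of all tested genes), with a median log2 difference of 0.39, which was 0.20 without WT-1. Their summed level was 78401 and 94120 normalized counts in WT against 106271 and 113142 in Zbtb16lu/lu. The most abundant were Ly6c2, with 31606 to 46582 normalized counts over the 4 libraries, and F13a1, with 30767 to 41732. All 10 mature neutrophil markers were higher, 6 at an unadjusted p under 0.05, with a median of 1.69. Between lu-1 and WT-1 the median was 0.58 and 7 of the 10 were higher, and between lu-2 and WT-2 it was 3.01 with 9 higher. Without WT-2 or without lu-2, 8 were higher. Their summed level overlapped between the genotypes, with 14171 and 6473 normalized counts in WT against 10501 and 21023 in Zbtb16lu/lu. The most abundant was S100a8, at 3967 to 9219. All 6 tested dendritic cell markers were higher, 0 with an unadjusted p under 0.05, with summed levels of 1819 and 1918 in WT against 2068 and 2374 in Zbtb16lu/lu. All 6 mast cell and basophil markers were lower, 1 (Ms4a2) at an unadjusted p under 0.05 (against 4.37% of all tested genes). Their median was -0.31, with summed levels of 8262 and 8582 in WT against 5988 and 7933 in Zbtb16lu/lu. The part of such cells in the Irf8 difference was not tested.

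Target genes of MYC leaned the other way. Of 15 tested, 13 were lower in Zbtb16lu/lu and 6 had an unadjusted p under 0.05 (against 4.37% of all tested genes), with a median log2 difference of -0.29. Ncl, the nucleolar protein nucleolin, had 46328 and 46711 normalized counts in WT against 34597 and 34865 in Zbtb16lu/lu (log2 difference -0.42, limma adjusted p = 0.39, DESeq2 adjusted p = 0.0562). Tfrc, the transferrin receptor, and Eif4e, the cap-binding protein, had log2 differences of -0.39 each. The count rested in part on WT-1, which also had the highest Myc. Without WT-1, 8 of the 15 were lower and the median was -0.06. Within the MYC network, Mycl had 9.94 and 7.72 normalized counts in WT against 22.6 and 45.2 in Zbtb16lu/lu (log2 difference 1.76, limma adjusted p = 0.441). Mga, a MAX-binding repressor, had a difference of -0.34 and Mxd4, an antagonist of MYC, one of 0.32.

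Of 6 tested genes listed as targets of MYB and RUNX1, 4 were higher and 2 lower. The 4 higher ones encode granule proteins, and the lower were Kit (-0.03) and Ms4a3 (-0.21). Elane, neutrophil elastase, had 37949 and 36604 normalized counts in WT against 48674 and 47604 in Zbtb16lu/lu, a log2 difference of 0.37 (limma adjusted p = 0.428). Of 26 other lineage factors tested, 11 were higher and 15 lower. Those with the lowest p were Ikzf2 (Helios, -0.44), Stat5b, a transducer of cytokine signals (0.32), and Cebpd, a C/EBP factor of myeloid cells (0.40), with limma adjusted p-values of 0.428 to 0.466.

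**Figure D4:**
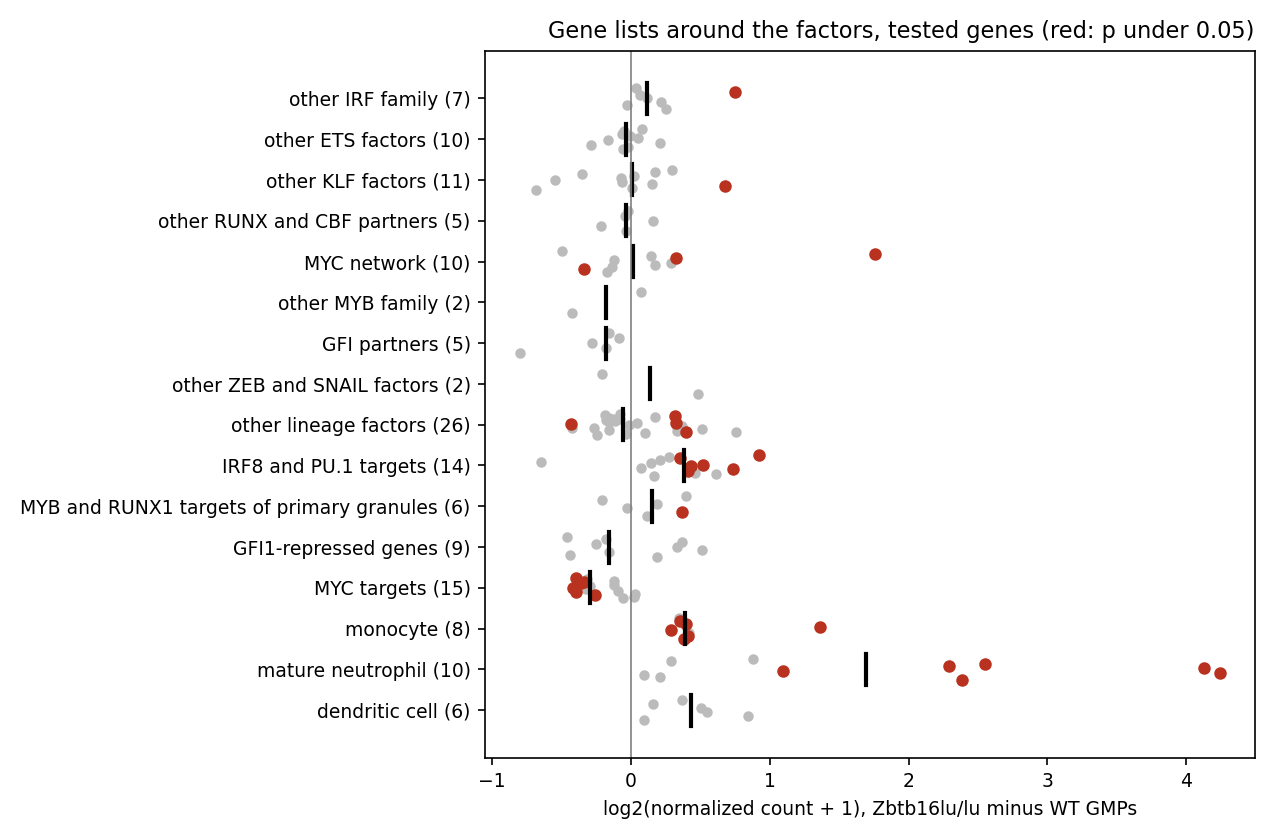
Log2 difference between Zbtb16lu/lu and WT GMPs (x axis) of each tested gene in the lists (number tested in parentheses), with a black bar at the list's median and red points for genes with an unadjusted limma p under 0.05. IRF8 and PU.1 targets (median 0.38) and monocyte markers (0.39) lie mostly right of 0 and MYC targets (-0.29) mostly left, and neutrophil markers spread furthest.

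As a description, the tested genes whose profile over the 4 GMP libraries lay nearest to that of Irf8 were Rapsn, Gm15821, Tubb2b, 9630028H03Rik and AC163623.1. Their Euclidean distances, on centred log2 values, were 0.03 (0.0297) for Rapsn to 0.05 (0.052) for AC163623.1. None of the other tested factors was among these 5, and 33 genes lay within a distance of 0.1 of Irf8.

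In 416b cells the factors stood in another order, and Irf8 was low. Per kilobase of exon, Myc was first with 4275 normalized counts in Empty vector cells and 4430 in PLZF-Flag cells, then Cbfb (3268 and 3255), Spi1 (1966 and 2113) and Myb (792 and 812). Irf8, at 61.2 and 65.3, lay at the 29.3 and 30.4 percentile of the table, where in GMPs it lay at the 88.6 to 92.6 percentile of the tested genes. Klf4 had 3 reads per library, so no ratio is given. The libraries held 54529220 (Empty vector) and 19995846 (PLZF-Flag) reads on the listed genes.

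PLZF-Flag expression raised Zbtb16 from 632 to 1538 reads in the shallower library, a log2 ratio of 2.73. The log2 ratios of the 7 members with one lay between -0.21 and 0.10. With 1 library per condition there was no test, and 95% exact binomial intervals cover counting error only. Irf8 was covered by 714 reads (432 normalized counts) in Empty vector cells and by 279 reads (461 normalized counts) in PLZF-Flag cells, a log2 ratio of 0.09 (interval -0.11 to 0.30). The interval included 0, and how much Irf8 varies between 416b cultures is not known from 1 library per condition. Spi1 had 5298 and 5694 normalized counts, a log2 ratio of 0.10 (0.05 to 0.16), and Myc had 11616 and 12036, a ratio of 0.05 (0.01 to 0.09). Runx1 had 2064 and 1822 normalized counts, a ratio of -0.18 (-0.28 to -0.08), and Zeb2 had 2089 and 1812, a ratio of -0.21 (-0.30 to -0.11). Myb, at 0.04, and Cbfb, at -0.01 (-0.006), had intervals that included 0.

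Of the 7 members with a ratio, 2 had an interval above 0 and 2 below, where 17.9% lay above and 17.1% below among the 10119 genes whose mean reached 100 normalized counts. Ratios at least as far from 0 were common in the table, since 13.3% of those genes had a larger absolute ratio than Zeb2, the member that moved most. Among the relatives of the factors with such a mean, Irf7 had a log2 ratio of -0.74 (-1.13 to -0.37) and Irf9, a part of the interferon-response complex, one of -0.40 (-0.58 to -0.23). Id2, an inhibitor of E proteins that GFI1 represses, had -0.77 (-1.12 to -0.44), and Runx2, the relative of Runx1, had -0.63 (-0.93 to -0.34). Mycn, the paralogue of Myc, had 0.66 (0.52 to 0.81), and Mybl1, a relative of Myb, -0.62 (-1.09 to -0.15). Itgam, a PU.1 target that encodes Cd11b, had -0.56 (-0.63 to -0.50), and Klf6 had -0.34 (-0.46 to -0.23). Ctsg, the granule protease cathepsin G, had -0.47 (-0.57 to -0.37). The other genes with the 2 largest ratios of their list were closer to 0. Intervals lay above 0 for Runx3 (0.16), Hdac1 (0.15), Kdm1a (0.13) and Kit (0.18) and below 0 for Elf1 (-0.13), Mxd1 (-0.25), Cad (-0.24) and Tfrc (-0.23). They included 0 for Elf4, Klf11, Mybl2, Zeb1, Egr1 and Cd68. Among the monocyte markers, Ccr2, a chemokine receptor, had a log2 ratio of -0.82 (-1.31 to -0.38). F13a1, the other one whose mean reached 100 normalized counts, had 0.01 (-0.07 to 0.10).

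**Figure D5:**
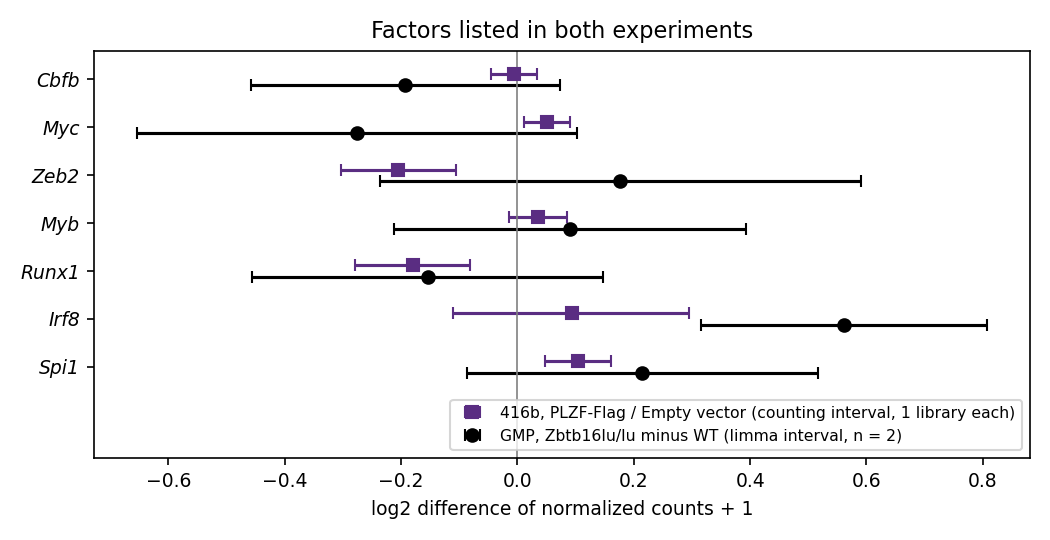
Log2 differences (x axis) of the 7 factors with a value in both experiments. Purple squares give the ratio of PLZF-Flag to Empty vector 416b cells with a 95% counting interval (1 library each), and black circles give Zbtb16lu/lu minus WT GMPs with the 95% limma interval (n = 2). Irf8 is at 0.56 in GMPs and 0.09 in 416b cells, and the 416b values of all 7 lie between -0.21 and 0.10.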

How the data were processed

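RNA-seq of sorted GMPs (TruSeq Stranded Total RNA, ribosomal RNA removed) and of 416b cells (SMART-Seq v3) was analysed. ChIP-seq and ATAC-seq data were not used here. Per the labels and the study's methods, the authors aligned reads to mm10 with Subread, counted them per gene with featureCounts (1.5.0 in the submitters' processing notes) and divided by DESeq2 size factors, so the deposited signal values are normalized counts. Log2 values, fold changes and p-values that the authors added to the tables were not used. The methods give more RNA extractions per genotype than the 2 libraries in the table, and each genotype's libraries form 1 sample in the labels, so p-values measure the spread between libraries.

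Values were whole multiples of 1 read for 100% of GMP values and for 84.8% (Empty vector) and 85.5% (PLZF-Flag) of 416b values, within 0.1. In a WT and a Zbtb16lu/lu library 1 read was worth 0.994 and 1.004, so close to 1 that multiples prove little by themselves. Reads recovered this way (rounded) were used for intervals and for count tests as alternatives.

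GMP libraries were compared by limma 3.58.1 with an intensity trend (R 4.3.3) on log2 values after adding 1, which understates changes of low genes. The 20531 genes with at least 10 in at least 2 libraries were fitted, and adjusted p-values (Benjamini-Hochberg) under 0.08 were called. Alternatives were edgeR 4.0.16, DESeq2 1.42.0, other pseudocounts (0.1 and 10), filters and scalings, trends of length and GC content removed (GENCODE M21), and each library left out. The fits were tested on simulated data. 416b ratios used 95% Clopper-Pearson intervals (scipy 1.17.1). Levels were divided by exon bases.

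The members and lists were chosen with earlier results of these data known. The genes named are the members, up to 3 genes of each list with the lowest p, abundant markers, and in 416b cells the 2 genes of each factor, partner or target list with the largest ratios. Ly86, Cd3e, Siglech and Kit in GMPs and Ccr2 and F13a1 in 416b cells were named after their values were seen.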

Additional observations from a re-analysis of the deposited data

How the results depend on the processing

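Over the 9 tested members and the 15 alternatives with a test, 124 of 135 values kept their direction and their side of the threshold, 7 crossed it in the same direction and 4 reversed. Irf8 stayed between 0.55 and 0.58 under the settings with all 4 libraries, with adjusted p-values from 0.00346 (DESeq2) to 0.615 (no intensity trend). The number of members past the threshold, 0 in the reported comparison, was 1 (Irf8) with DESeq2 and 0 to 3 with each library left out. The 3 were Irf8, Spi1 and Runx1 without WT-1, and Irf8, Myc and Zeb2 (0.4816) without WT-2. In these fits the lone library is assumed to vary like the remaining pair, and 4662 and 2749 genes passed, against 64 and 1 without a Zbtb16lu/lu library. The number with an unadjusted p under 0.05, 1 in the reported comparison, was 3 with length and GC trends removed and 1 to 4 with each library left out. Over all genes such a p was found for 1759 of 20103 with those trends removed, and of 20531 for 6456 without WT-1 and 4673 without WT-2.

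Directions reversed for Spi1 (-0.0282) and Gfi1 (-0.0867) with length and GC trends removed, for Klf4 (-0.0172) and Runx1 (0.0422) between lu-1 and WT-1, and for Myb (-0.0515) and Zeb2 (-0.1277) without WT-1. The cause was not tested. The Irf8 to Gfi1 difference was 0.40 to 0.51 and the Irf8 to Spi1 difference 0.23 to 0.46 with each library left out. The lower value of the latter was found without WT-1.

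Among the lists, with length and GC trends removed (chosen after seeing the data) at an unadjusted p under 0.05 there were 2 higher KLF genes and 1 lower, 1 GFI1-repressed gene was lower and 0 primary granule genes were higher. At such a p, 1 GFI1 partner or paralogue was lower under that setting, with edgeR and with a mean of at least 100. Under the last of these, 1 gene of the MYC network was higher at such a p. With no intensity trend 1077 genes had such a p and a higher value in Zbtb16lu/lu, and 544 a lower one. No paired analysis was possible because the libraries carry no replicate numbers and only 1 WT and 1 Zbtb16lu/lu library share a date. Depth limits Irf4 and, in 416b cells, Klf4.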

Other observations

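Among the 7 IRF genes that are not members, Irf7 had the largest log2 difference in GMPs. It was 0.75 between Zbtb16lu/lu and WT, and Irf7 alone of the 7 had an unadjusted p under 0.05. Of all tested genes, 5.5% were higher at such a p. In 416b cells Irf7 was covered by 333 reads with the Empty vector and by 73 with PLZF-Flag. Its log2 ratio was -0.74 (-1.13 to -0.37), and Irf9 was also lower there, at -0.40 (-0.58 to -0.23). Whether Irf7 differs from the other IRF genes was not tested. The 416b ratios have no replicate check, and whether the Irf7 values of the experiments are related was not tested.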
